A study of Mus musculus with 7 samples.

Results

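Transcripts of DEK, its relative in chromatin chemistry SET, and the high-mobility-group (HMG) proteins of the HMGA, HMGB and HMGN families were examined in mouse hematopoietic stem cells (HSCs). The set was chosen by name, as the rows of the gene table whose symbol is Dek, Set, Hmga1, Hmga2, Hmgb1, Hmgb2, Hmgb3, Hmgn1, Hmgn2 or Hmgn3. All 10 symbols were found once each among the 33298 genes of the table. About 800 CD150+ CD48- cells of the c-Kit+ Sca-1+ Lin- fraction were sorted per library from bone marrow of mice aged 12 weeks, without any challenge, and their polyadenylated RNA was amplified with a low-input kit. Dek_cKO mice (Dek fl/fl with Tie2-Cre) gave 3 libraries and Dek_fl mice (Dek fl/fl without Cre) gave 4 libraries, so both groups carry the floxed Dek alleles and differ in the Cre transgene. The series text speaks of triplicates, and all 4 Dek_fl libraries were used. Tie2-Cre is a recombinase expressed in endothelial and hematopoietic cells, so deletion is not limited to HSCs and may be present from their origin onward. The labels do not say which exons are flanked by lox sites, and do not tie libraries to individual mice. The spread that enters the p-values is that among the libraries, which may be partly technical.

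Architectural chromatin proteins bend, bridge or loosen DNA and nucleosomes without carrying an enzymatic activity of their own. DEK binds DNA and histones, introduces supercoils and acts as a histone chaperone, and SET is an acidic histone chaperone that masks histone tails from acetylation and inhibits protein phosphatase PP2A. DEK and SET are both known in acute leukemia as fusion partners of the nucleoporin NUP214. HMGA proteins hold AT-hooks that grip the minor groove of AT-rich DNA, HMGB proteins bend DNA through HMG boxes, and HMGN proteins bind nucleosomes and counteract linker histone H1. In blood, HMGA2 is known for its high level in fetal HSCs and HMGB3 for its part in the balance between self-renewal and differentiation of stem and progenitor cells.

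Sequence before the transcription start is shown for Dek, the deleted gene, for Hmgn1, whose comparison depended most on a single control library, and for Hmgb2, which was among the steadiest. The windows are the 250 bases before the annotated start from RefSeq (GRCm38.p6), written 5′ to 3′ on the strand of the gene. Capitals mark CCAAT, the letters of a CCAAT box, and GGGCGG, the letters of a GC box, on either strand (as ATTGG and CCGCCC on the opposite one). The windows are chr13:47106222-47106471 (minus strand) for Dek, chr16:96127726-96127975 (minus strand) for Hmgn1 and chr8:57511593-57511842 (plus strand) for Hmgb2.
Dek: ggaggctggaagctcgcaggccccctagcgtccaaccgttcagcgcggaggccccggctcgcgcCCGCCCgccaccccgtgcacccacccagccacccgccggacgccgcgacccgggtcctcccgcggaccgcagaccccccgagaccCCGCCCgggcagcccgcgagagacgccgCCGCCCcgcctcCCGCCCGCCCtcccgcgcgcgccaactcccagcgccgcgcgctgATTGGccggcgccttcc
Hmgn1: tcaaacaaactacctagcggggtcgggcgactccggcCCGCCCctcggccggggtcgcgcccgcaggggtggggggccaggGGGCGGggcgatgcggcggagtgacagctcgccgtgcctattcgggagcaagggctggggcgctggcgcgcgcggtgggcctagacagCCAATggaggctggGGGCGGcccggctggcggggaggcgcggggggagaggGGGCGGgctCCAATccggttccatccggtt
Hmgb2: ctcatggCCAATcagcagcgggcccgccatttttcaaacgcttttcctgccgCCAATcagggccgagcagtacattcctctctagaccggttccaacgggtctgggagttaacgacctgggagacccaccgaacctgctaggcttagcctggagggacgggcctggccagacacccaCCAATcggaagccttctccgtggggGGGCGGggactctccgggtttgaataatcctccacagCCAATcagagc
Windows were found for 9 of the 10 genes, and the first listed start was used where a gene has several. Dek has the highest GC content of the 9 at 81.2%, with 5 copies of GGGCGG, some of which overlap, and 1 of CCAAT. Hmgn1 is at 76.0% with 4 and 2 copies, and Hmgb2 at 60.4% with 1 and 4. Over the 9 genes the GC content of the window ranged from 56.4% to 81.2%, against a median of 52.4% over all 32851 windows. The letters GGGCGG stood in 8 of the 9 windows and CCAAT in 6, while of all windows 32.7% hold GGGCGG and 33.8% hold CCAAT. Of the other letters searched on both strands, TATAAA stood in 0 of the 9 (12.4% of all windows) and GCGGGAA only in that of Hmga2, where it overlaps GGGCGG (3.82% of all windows). These matches describe the letters of the windows and no binding was measured.

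Expression is given in FPKM, fragments scaled to transcript length and library total, as deposited by the authors. Levels of different genes can thus be set side by side within a library, subject to the length used. Of genes recovered as whole reads in all 7 libraries, 98.9% fitted their longest annotated transcript. A gene expressed mainly as a shorter transcript is then understated. The library totals recovered from the FPKM ranged from 4209152 to 26951515 reads. Dek_fl replicate 4 stood apart, where 8575 genes had a value above 0, while each other library had 14291 to 19950. Among 4051 tested genes averaging 20 FPKM or more, 29.2% were lower in Dek_fl replicate 4 than in each of the other 6 libraries. The fold change of each of the 10 genes is therefore given with and without that library. Among markers of HSCs, Kit was at 59.4 to 267 FPKM in Dek_cKO and 70.9 to 120 FPKM in Dek_fl. Slamf1, which encodes the CD150 used in the sort, was at 0 to 1.80 FPKM in Dek_cKO and 0 to 1.70 FPKM in Dek_fl. Of 12 HSC markers 10 were tested, 3 with positive and 7 with negative log2 fold changes. Only Gata2, as deposited, had an unadjusted p under 0.05 by limma and groups apart. It was at 7.51 to 18.3 FPKM in Dek_cKO and 31.5 to 124 FPKM in Dek_fl. Its values in Dek_cKO replicates 1 and 3, 7.51 and 12.3 FPKM, carry 5 decimals and are of doubtful scale, like a value of Dek described below. Multiplied by 10, both would lie within the range of Dek_fl. The 6 endothelial genes summed to 37.7, 50.5 and 18.3 FPKM in Dek_cKO and to 16.8, 8.38, 23.4 and 31.6 FPKM in Dek_fl. Pecam1 was at 9.94 to 29.0 FPKM in Dek_cKO and 1.43 to 13.3 FPKM in Dek_fl, while Cdh5 and Plvap were at most 0.341 FPKM. Ranges in Dek_cKO and Dek_fl were 4.37 to 19.65 and 0.607 to 16.83 FPKM for Emcn. They were 0.704 to 3.84 and 0.0289 to 10.4 FPKM for Vwf, and 0 to 7.82 and 0 to 0.241 FPKM for Kdr. Of the 6 T and NK cell genes Cd3d was at 0 FPKM in every library, Cd3g, Il7r and Klrb1c at most 0.725 FPKM, and Cd3e at most 5.40 FPKM. Nkg7 was at 450.5 to 1345 FPKM in Dek_cKO and 34.9 to 576 FPKM in Dek_fl. It was higher at an unadjusted p under 0.05 by limma, as were 2.12% of all genes. Without Dek_fl replicate 4 the unadjusted p of Nkg7 by limma was 0.170. The summed level of 7 neutrophil genes was 135, 480 and 7434 FPKM in Dek_cKO and 136, 1708, 263 and 333 FPKM in Dek_fl. Sums of 6 erythroid genes were 27.7 to 38.2 FPKM in Dek_cKO and 58.4 to 139.4 FPKM in Dek_fl. Those of 5 B cell genes were 42.5 to 110.3 and 4.43 to 218.4 FPKM. For 4 monocyte and macrophage genes they were 275 to 351.5 and 245.6 to 356.9 FPKM. The 4 megakaryocyte genes summed to 378, 111 and 264 FPKM in Dek_cKO and to 119, 150, 84.7 and 1166 FPKM in Dek_fl. Among them Gp9 was also higher at an unadjusted p under 0.05 by limma (0.118 without Dek_fl replicate 4), with overlapping groups. The part of other cells in the results was not tested, and in such sorted bulk samples fewer cells of a type and less RNA per cell cannot be told apart.

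Together the 10 genes formed an abundant set. Their summed level was 2077, 1733 and 2372 FPKM in the Dek_cKO libraries, and 2784, 2866, 2606 and 1285 FPKM in the Dek_fl libraries. By this sum Dek_fl replicate 4 was the lowest of all, and the other 3 Dek_fl libraries were above each Dek_cKO library. The FPKM of all genes summed to different totals, from 484155 to 724098 per library. As a share of that total the set held 0.429%, 0.331% and 0.328% in Dek_cKO and 0.3845%, 0.552%, 0.527% and 0.189% in Dek_fl. On that scale Dek_fl replicate 1 lay below Dek_cKO replicate 1. By median over libraries, Hmgn2 was the highest gene in both groups, at 753 FPKM in Dek_cKO and 877 FPKM in Dek_fl. Hmgb2, Set and Hmgb1 followed, with medians of 344, 302 and 282 FPKM in Dek_cKO, and of 331, 471 and 318 FPKM in Dek_fl. Next came Hmgb3, at a median of 135 FPKM in Dek_cKO and 142 FPKM in Dek_fl, and Hmgn1, at 95.6 FPKM in Dek_cKO and 233 FPKM in Dek_fl. Hmgn3, Hmga1 and Hmga2 were lower, at medians of 77.2, 44.7 and 11.1 FPKM in Dek_cKO and 46.3, 64.3 and 6.91 FPKM in Dek_fl. In the Dek_cKO libraries the ranges of neighbours in this order were apart for Hmgn2 and Hmgb2, Hmgb2 and Set, Hmgb1 and Hmgb3, Hmgb3 and Hmgn1, and Hmgn1 and Hmgn3. Set and Hmgb1, Hmgn3 and Hmga1, Hmga1 and Hmga2, and Hmga2 and Dek overlapped. In the 4 Dek_fl libraries all neighbouring ranges overlapped. Without replicate 4, Hmgn2 stood apart from Set, Hmgn1 from Hmgb3, Dek from Hmga1, and Hmgn3 from Hmga2.

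**Figure D1:**
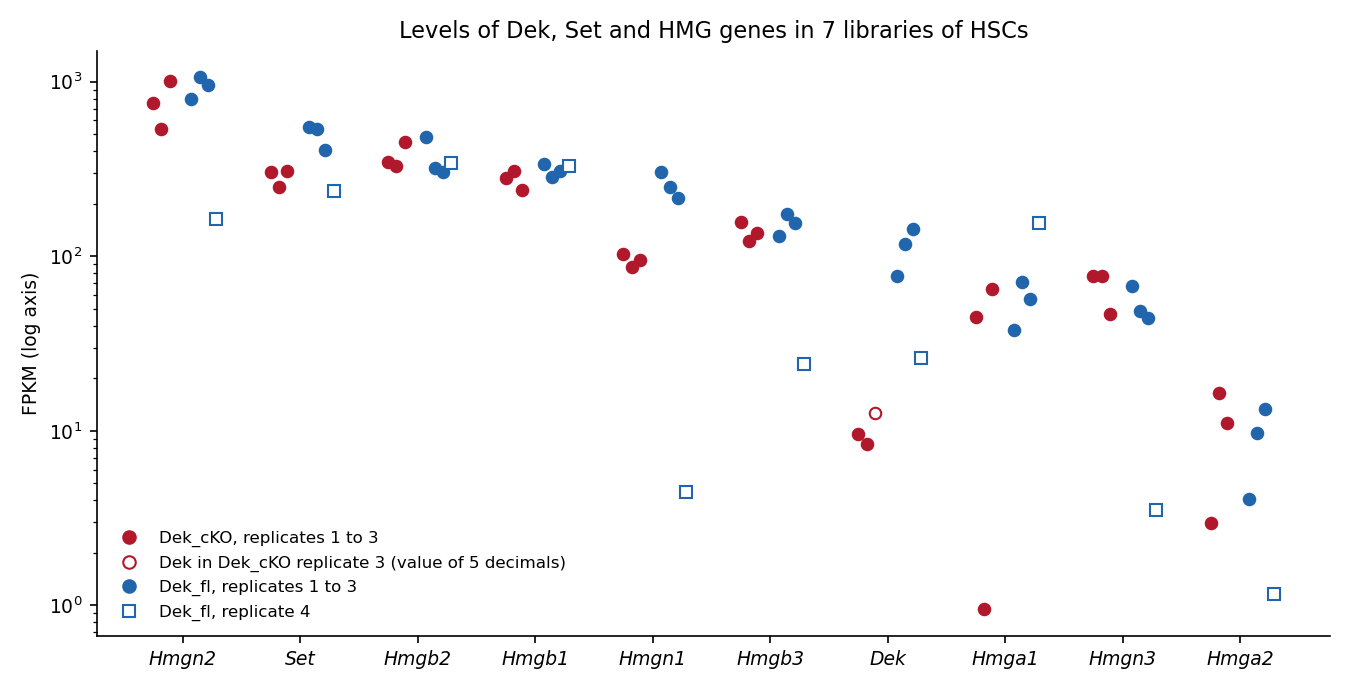
FPKM on a log axis of the 10 genes in each library, ordered by the mean of Dek_fl replicates 1 to 3, with Dek_cKO libraries (red) left of Dek_fl libraries (blue). Open squares are Dek_fl replicate 4, which lies far below the other Dek_fl libraries for Hmgn1 (4.48 FPKM) and above them for Hmga1 (154 FPKM), and the open circle is the Dek value with 5 decimals (12.7 FPKM).

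Dek, on chromosome 13 from 47084775 to 47106201 of GRCm38, was at 9.60, 8.40 and 12.7 FPKM in the Dek_cKO libraries and at 77.0, 117.8, 143.0 and 26.0 FPKM in the Dek_fl libraries. As deposited, the groups did not overlap, and Dek_fl replicate 4 was the control library nearest to the Dek_cKO libraries. The value of Dek_cKO replicate 3 is of doubtful scale. It carries 5 decimals, as only 3 of all 233086 deposited values do. The others are those of Gata2 in Dek_cKO replicates 1 and 3. All of them lie in Dek_cKO libraries and in genes that were lower there as deposited. No other value of the 10 genes has more than 4 decimals. At the transcript length of 2556 bases the doubtful Dek value stands for 405.8 reads. The other 69 of the 70 values of the 10 genes are whole reads at a single annotated length per gene, within 0.003 reads plus the rounding of the values. Multiplied by 10, the value is 126.6 FPKM and 4058 whole reads, a level among those of Dek_fl replicates 1 to 3. Which of the 2 values is right is not given in the sources used here, so the main results on Dek are given with both.

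Set against the other 9 genes, Dek stood below the middle of the set in the controls and among the lowest genes in Dek_cKO as deposited. Its place among the 10 was 9, 9 and 9 in Dek_cKO and 7, 7, 7 and 6 in Dek_fl. Its share of their summed FPKM was 0.462%, 0.485% and 0.534% in Dek_cKO and 2.77%, 4.11%, 5.49% and 2.03% in Dek_fl. With the value multiplied by 10, the share in Dek_cKO replicate 3 was 5.09%. With either value, in no library was Dek above Set, Hmgb1, Hmgb2 or Hmgn2. It was above Hmgn3 in 0 of 3 Dek_cKO libraries and in 4 of 4 Dek_fl libraries, and above Hmga1 in 1 of 3 Dek_cKO libraries and in 3 of 4 Dek_fl libraries. Above Hmga2, the least abundant of the set by median over all libraries, it stood in 2 of 3 Dek_cKO libraries and in 4 of 4 Dek_fl libraries. With the value multiplied by 10, Dek was above Hmgn3 in 1 and above Hmga1 in 2 of the 3 Dek_cKO libraries. The level of Dek minus the mean of the other 9 on the log2(FPKM + 1) scale was -3.36 ± 0.125 in Dek_cKO (SD, n = 3) and -0.57 ± 0.374 in Dek_fl (SD, n = 4), a difference of -2.80. Dek_fl replicate 4, low for most of the set, was at -0.77 on this scale, between replicate 1 at -0.95 and replicate 2 at -0.47. With the value multiplied by 10, Dek_cKO replicate 3 was at -0.10, Dek there held place 6 of 10, and the difference between groups was -1.72. Without Dek_fl replicate 4 the difference was -2.86 as deposited and -1.79 with the value multiplied by 10.

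**Figure D2:**
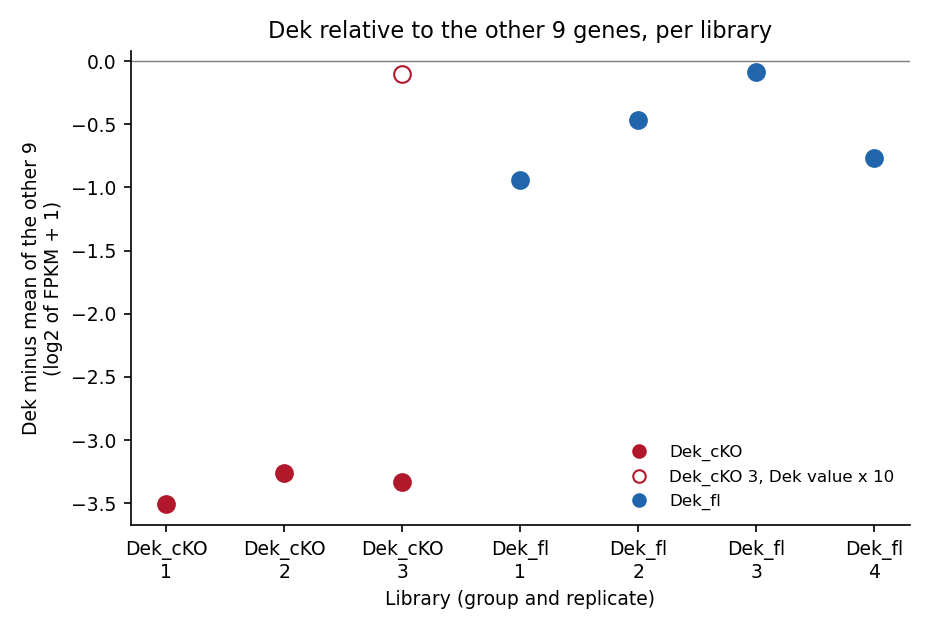
Level of Dek minus the mean of the other 9 genes, in log2(FPKM + 1), for each library. The 3 Dek_cKO libraries lie between -3.50 and -3.26 as deposited and the 4 Dek_fl libraries between -0.95 and -0.09, while the open circle is Dek_cKO replicate 3 with its Dek value multiplied by 10 (-0.10).

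The question of the comparison was whether transcripts of these proteins differ where Dek is deleted. All 10 genes passed the filter of at least 1 FPKM in at least 3 libraries. By limma on log2(FPKM + 1), adjusted by the Benjamini-Hochberg method over 10260 genes, 0 of the 10 were called at an adjusted p of 0.05, as were 0% of all genes tested, and each had an adjusted p of 0.9999. At an unadjusted p under 0.05 there were 404 genes in all (3.94%; 2.12% higher and 1.81% lower), and among the members this held for Dek alone, in the lower direction. The unadjusted p of Dek by limma was 0.00853. The groups did not overlap for Dek alone, lower in Dek_cKO, while 2.09% of all genes were lower and 2.86% higher without overlap. Log2 fold changes were positive for 5 of the 10 genes and negative for 5, with a median of 0.022 where the median of all genes tested was 0.053. The median standard error was 0.843 for the 10 genes and 1.25 for all genes. For Dek the log2 fold change was -2.81 (95% interval -4.81 to -0.80). Without Dek_fl replicate 4 it was -3.31 (95% interval -5.12 to -1.51) as deposited and -2.24 with the doubtful value multiplied by 10. With all libraries it was -1.73 with the doubtful value multiplied by 10, with an unadjusted p of 0.102 by limma. The exact permutation test of the mean FPKM of Dek gave p = 0.0571 as deposited and p = 0.314 with that value multiplied by 10 (two-sided over 35 splits).

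Without Dek_fl replicate 4, 7 of the 10 genes had a negative log2 fold change, with a median of -0.24, against -0.11 for all 9979 genes tested. Again 0 of the 10 and 0% of all genes were called, with a smallest adjusted p of 0.826 by limma. Dek and Hmgn1 had an unadjusted p under 0.05 in the lower direction, as did 3.47% of all genes. Dek, Set and Hmgn1 were lower in Dek_cKO without overlap, as were 6.2% of all genes, and Dek was so only as deposited. With 3 libraries against 3, an exact permutation test cannot go below p = 0.10, which each of the 3 reached as deposited (two-sided over 20 splits).

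**Figure D3:**
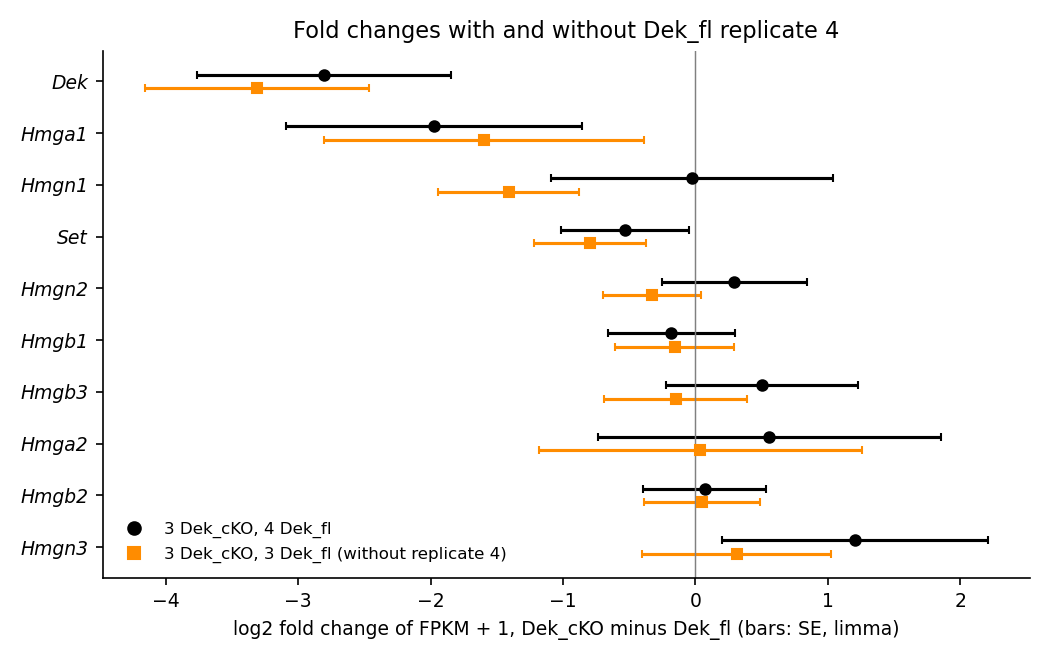
Log2 fold change of FPKM + 1, Dek_cKO minus Dek_fl, with standard errors from limma, with all 4 Dek_fl libraries (black circles) and without Dek_fl replicate 4 (orange squares). Hmgn1 is at -0.025 with all libraries and at -1.41 without that library, while Hmgb1 (-0.18 and -0.16) and Hmgb2 (0.069 and 0.053) stay near 0.

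SET, the histone chaperone and PP2A inhibitor, is encoded on chromosome 2 from 30057378 to 30072577. Set was at 302, 248 and 306 FPKM in Dek_cKO and at 553, 534, 408 and 237 FPKM in Dek_fl. Each Dek_cKO library lay below Dek_fl replicates 1 to 3 and above replicate 4. The means were 285 ± 32.5 FPKM in Dek_cKO (SD, n = 3) and 433 ± 146 FPKM in Dek_fl (SD, n = 4), a log2 fold change of -0.53 (SE 0.485). The exact permutation test gave p = 0.20 (two-sided over 35 splits). Without Dek_fl replicate 4 the Dek_fl mean was 498 ± 78.8 FPKM (SD, n = 3) and the log2 fold change -0.80 (95% interval -1.70 to 0.11; adjusted p = 0.933 by limma). Relative to Hmgb1, which was steady across libraries, Set was at 1.07, 0.802 and 1.27 times its level in Dek_cKO and at 1.64, 1.89, 1.33 and 0.720 times in Dek_fl, a ratio chosen after its values were seen.

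HMGN proteins bind the nucleosome core beside linker histone H1. Hmgn1, on chromosome 16 from 96120618 to 96127729, was at 103, 86.8 and 95.6 FPKM in Dek_cKO and at 305, 249, 217 and 4.48 FPKM in Dek_fl. The Dek_cKO libraries lay close together, with a coefficient of variation of 8.67%, below each of Dek_fl replicates 1 to 3 and far above replicate 4. In that library Hmgn1 had 44 reads, for which counting error alone allows 3.25 to 6.01 FPKM (95% Poisson interval). With all libraries the log2 fold change was -0.025 (95% interval -2.26 to 2.21). Without Dek_fl replicate 4 the means were 95.3 ± 8.26 FPKM in Dek_cKO and 257 ± 44.4 FPKM in Dek_fl (SD, n = 3 each), a ratio of 0.371. The log2 fold change was then -1.41 (95% interval -2.54 to -0.28), with an unadjusted p of 0.0177 and an adjusted p of 0.826 by limma. The size of the difference thus depended on that control library. With it kept, the value was near 0 and of unstable sign, at 0.36 to 0.52 when any other Dek_fl library was left out and at 0.039 without Dek_cKO replicate 2.

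Hmgn2, on chromosome 4 from 133964738 to 133968650, was at 753, 535 and 1006 FPKM in Dek_cKO and at 792, 1058, 962 and 164 FPKM in Dek_fl. The groups overlapped, with a log2 fold change of 0.29 (95% interval -0.85 to 1.44) and of -0.33 without Dek_fl replicate 4. The level of Hmgn1 relative to Hmgn2 was 0.137, 0.162 and 0.0951 in Dek_cKO, against 0.384, 0.236, 0.225 and 0.0273 in Dek_fl. Within-library scaling cancels in this ratio, and Dek_fl replicate 4 lay below each Dek_cKO library and the other Dek_fl libraries above. The ratio was chosen after its values were seen. Hmgn3, which is also expressed outside blood, for example in endocrine and nervous tissue, lies on chromosome 9 from 83109948 to 83146685. It was at 77.2, 77.5 and 46.8 FPKM in Dek_cKO and at 67.8, 48.4, 44.2 and 3.50 FPKM in Dek_fl, where the lowest value rests on 22 reads. Its log2 fold change of 1.20 (95% interval -0.89 to 3.30) was 0.31 without Dek_fl replicate 4.

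HMGB proteins bend DNA, and outside the cell HMGB1 is known as a danger signal. Hmgb1, on chromosome 5 from 149046702 to 149184489, was at 282, 308 and 241 FPKM in Dek_cKO and at 336, 282, 307 and 328 FPKM in Dek_fl. Its highest library was 1.40 times its lowest, Dek_fl replicate 4 included. Of the 412 tested genes with a mean level within 2 times its own, 0% had a smaller within-group SD of log2(FPKM + 1) than the 0.144 of Hmgb1. The means were 277 ± 34.1 FPKM in Dek_cKO (SD, n = 3) and 313 ± 24.2 FPKM in Dek_fl (SD, n = 4), and the log2 fold change was -0.18 (95% interval -1.18 to 0.81; exact permutation p = 0.171, two-sided over 35 splits). Hmgb2, known for high levels in dividing cells, lies on chromosome 8 from 57511907 to 57515999. It was at 344, 330 and 454 FPKM in Dek_cKO and at 480, 319, 302 and 343 FPKM in Dek_fl, with a log2 fold change of 0.069 (95% interval -0.90 to 1.03) and overlap throughout. Of 316 genes of similar level, 3.16% had a smaller within-group SD than that of Hmgb2, 0.281 on the log2 scale. Hmgb3, the X-linked member of the family, lies from 71555918 to 71560676. Its level was 158, 122 and 135 FPKM in Dek_cKO, against 131, 176, 154 and 24.2 FPKM in Dek_fl. Its log2 fold change was 0.50 (95% interval -1.01 to 2.01), and -0.15 without Dek_fl replicate 4. The limma intervals of Hmgb1 and Hmgb2 reach about 1 on the log2 scale in either direction. Their standard errors of 0.477 and 0.463 exceed even the within-group SDs of 0.144 and 0.281. Limma draws each variance toward that of genes of similar level, so these intervals are wider than the genes' own spread would give. The data do not show that these genes are equal between groups.

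HMGA proteins carry AT-hooks. Hmga1, on chromosome 17 from 27556497 to 27563674, was at 44.7, 0.953 and 65.1 FPKM in Dek_cKO and at 37.7, 71.6, 57.1 and 154 FPKM in Dek_fl. A single Dek_cKO library was almost without its reads, at 8 reads (95% Poisson interval 0.411 to 1.88 FPKM), and the other Dek_cKO libraries lay within the range of Dek_fl. The log2 fold change of -1.97 (95% interval -4.30 to 0.36) was -0.37 without Dek_cKO replicate 2 and -1.60 without Dek_fl replicate 4. Leaving out Dek_cKO replicate 1 gave -2.64 (unadjusted p = 0.0447 by limma), and leaving out Dek_cKO replicate 3 gave -2.91 (unadjusted p = 0.0299 by limma). Hmga1 was also the only one of the 10 genes whose level in Dek_fl replicate 4 was above each other library. Hmga2, on chromosome 10 from 120361275 to 120476469, was at 2.96, 16.4 and 11.1 FPKM in Dek_cKO and at 4.05, 9.78, 13.3 and 1.16 FPKM in Dek_fl. Its deposited value was above 1 FPKM in every library of these adult HSCs. The lowest, in Dek_fl replicate 4, rests on 20 reads, with a 95% Poisson interval of 0.709 to 1.79 FPKM that includes 1. The groups of Hmga2 overlapped, with a log2 fold change of 0.56 (95% interval -2.15 to 3.26). It was 0.036 without Dek_fl replicate 4 and 1.18 without Dek_cKO replicate 1. Lin28a, Lin28b, Igf2bp1, Igf2bp2, Igf2bp3 and Plagl1, genes of the fetal program in which Hmga2 takes part, had summed levels of 0.834, 3.05 and 4.93 FPKM in Dek_cKO and 2.47, 0.193, 2.97 and 0 FPKM in Dek_fl. None of these 6 genes passed the filter for testing.

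**Figure D4:**
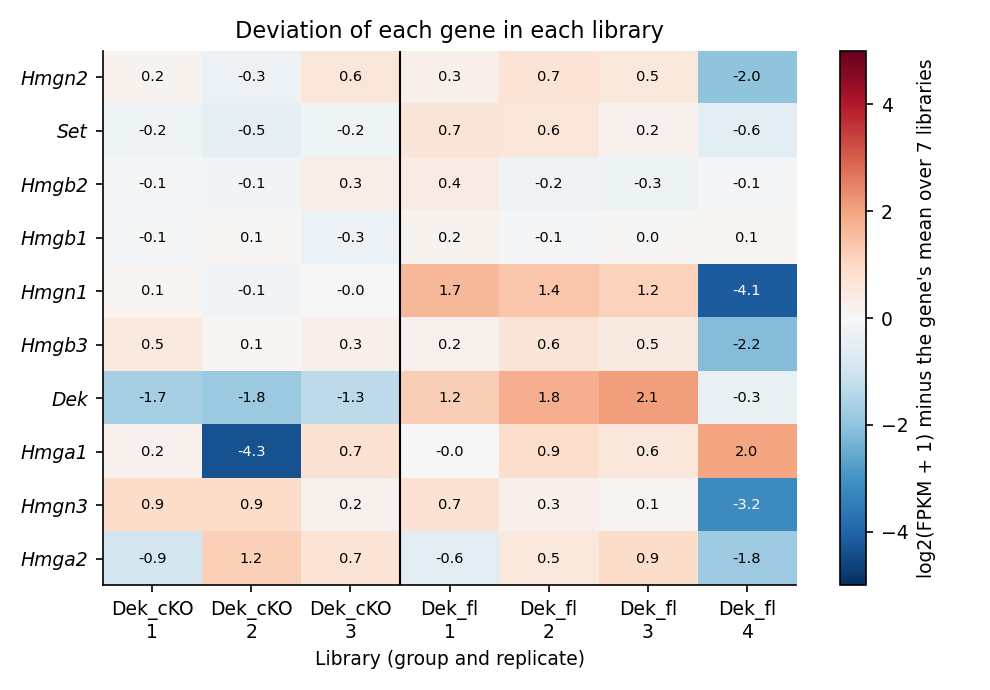
Deviation of each gene in each library from its own mean over the 7 libraries, in log2(FPKM + 1), with Dek_cKO libraries left of the line and Dek_fl libraries right of it. Dek_fl replicate 4 reaches -4.1 for Hmgn1 and -3.2 for Hmgn3, Dek_cKO replicate 2 reaches -4.3 for Hmga1, and Hmgb1 stays within -0.3 and 0.2 in all libraries.

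The 10 genes did not deviate together in Dek_fl replicate 4. Set, Hmga2, Hmgb3, Hmgn1, Hmgn2 and Hmgn3, 6 of the 10, were lower there than in each of the other 6 libraries, as were 26.6% of all genes tested. As a percentage of the mean of Dek_fl replicates 1 to 3, replicate 4 held 1.74% for Hmgn1, 6.54% for Hmgn3, 12.9% for Hmga2, 15.8% for Hmgb3, 17.5% for Hmgn2, 23.1% for Dek and 47.5% for Set. It held 93.4% for Hmgb2, 106% for Hmgb1 and 278% for Hmga1. The HMGB family was thus split, with Hmgb3 far below the other Dek_fl libraries and Hmgb1 and Hmgb2 near them. Over tested genes averaging 20 FPKM or more, the median ratio of replicate 4 to the mean of Dek_fl replicates 1 to 3 was 0.634.

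Several of these genes have processed copies in the genome, and reads may be shared between a gene and its copies. The table holds 12 rows named as copies of Hmgb1, 1 of Hmgn2, 1 of Hmgb3 and 1 of Hmga1. The copy Hmgn2-ps1 was at 43.4, 48.6 and 59.2 FPKM in Dek_cKO and at 104.7, 102.3, 98.8 and 6.34 FPKM in Dek_fl. Hmgb1-ps2 was at 27.0, 12.1 and 16.0 FPKM in Dek_cKO and at 52.7, 52.3, 52.8 and 3.83 FPKM in Dek_fl. For both copies each Dek_cKO library lay between Dek_fl replicate 4 and the other Dek_fl libraries, which their parent genes did not show. A further copy, Hmgb1-ps6, stood at 180.6 FPKM in Dek_cKO replicate 2 and at 0 to 2.73 FPKM in the other 6 libraries. These copies were chosen after their values were seen.

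Partners of these proteins were examined as groups. Of 11 partners of DEK, such as the casein kinase subunits and the histone H3.3 chaperone Daxx, and of 13 partners of SET, such as Anp32 proteins and PP2A subunits, 0 had an unadjusted p under 0.05 by limma in either direction, where 2.12% of all genes were higher and 1.81% lower. Their median log2 fold changes were -0.32 and -0.16. Of the DEK partners 1 was lower without overlap, and of the SET partners 1 was lower and 1 higher, where 2.09% of all genes were lower and 2.86% higher. Hdac2, a histone deacetylase found with DEK, was at 88.3, 35.8 and 51.5 FPKM in Dek_cKO and at 110.3, 131.7, 122.1 and 100.2 FPKM in Dek_fl, without overlap (log2 fold change -1.06, SE 0.685, unadjusted p = 0.136 by limma). Daxx was at 0, 4.06 and 32.0 FPKM in Dek_cKO and at 28.3, 5.23, 16.0 and 16.2 FPKM in Dek_fl. Nme1, a nuclease that SET inhibits, was at 10.8, 24.8 and 33.0 FPKM in Dek_cKO and at 78.8, 50.4, 36.4 and 55.8 FPKM in Dek_fl, also without overlap (log2 fold change -1.32, SE 0.908, unadjusted p = 0.162 by limma). The SET partner that was higher without overlap, named after its values were seen, was Nup214, the nucleoporin gene, at 15.0, 10.5 and 14.2 FPKM in Dek_cKO and at 5.97, 9.46, 7.79 and 0.101 FPKM in Dek_fl (log2 fold change 1.46, SE 1.29; 0.71 once Dek_fl replicate 4 was left out). Ppp2r1a, the scaffold subunit of PP2A, had a log2 fold change of -1.59 (SE 1.15).

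Of 11 tested further HMG proteins and 25 linker histones, cohesin and other architectural proteins, 0 had an unadjusted p under 0.05 by limma in either direction, against 3.94% of all genes. Their median log2 fold changes were 0.14 and 0.034. In each of these lists 1 gene was lower without overlap and 0 higher, where 2.09% of all genes were lower and 2.86% higher. In the second it was the cohesin subunit gene Smc3, named after its values were seen, at 43.4, 17.4 and 40.3 FPKM in Dek_cKO and at 74.6, 49.5, 52.8 and 56.3 FPKM in Dek_fl. Smarce1, the HMG-box subunit of SWI/SNF remodelers, was at 3.07, 2.18 and 8.85 FPKM in Dek_cKO and at 10.7, 68.3, 35.9 and 20.3 FPKM in Dek_fl, without overlap (log2 fold change -2.49, SE 1.21, unadjusted p = 0.0536 by limma). Without Dek_fl replicate 4 its log2 fold change was -2.63 with an unadjusted p of 0.0444 by limma. It was the 1 gene of the further HMG proteins under 0.05 there, where 3.47% of all genes were lower at that threshold. For Hmg20b the log2 fold change of 1.58 (SE 1.29) became 0.64 once Dek_fl replicate 4 was left out. The insulator protein Ctcf was at 1.46 (SE 1.08; 0.38 without Dek_fl replicate 4), and the linker histone gene Hist1h1c at 1.05 (SE 0.862). Hist1h1c was at 523.6, 175.4 and 29.8 FPKM in Dek_cKO and at 26.5, 123.6, 72.2 and 85.6 FPKM in Dek_fl, with the highest and another Dek_cKO library above all Dek_fl libraries and the third within their range.

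Of 8 receptors of extracellular HMGB1 or DEK, 4 were tested and 0 had an unadjusted p under 0.05 by limma, against 3.94% of all genes. Cxcr4, the receptor of the niche chemokine CXCL12, which HMGB1 can bind, was at 18.3, 9.65 and 14.1 FPKM in Dek_cKO and at 12.1, 2.61, 2.78 and 0.245 FPKM in Dek_fl, with a log2 fold change of 1.92 (SE 1.29). Tlr2 was at 17.0, 0 and 6.14 FPKM in Dek_cKO and at 0.946, 0, 24.6 and 0 FPKM in Dek_fl. The 20 genes of proliferation, listed because Hmgb2 is known for high levels in dividing cells, had 0 members at an unadjusted p under 0.05 by limma, against 3.94% of all genes. Their summed level was 3400, 3139 and 2837 FPKM in Dek_cKO and 3912, 3777, 3707 and 1780 FPKM in Dek_fl. Ccnb2 and Plk1, the members of smallest p, had log2 fold changes of 1.46 (SE 0.83; 0.69 without Dek_fl replicate 4) and 2.21 (SE 1.32). Plk1 was at 63.5, 2.365 and 2.21 FPKM in Dek_cKO and at 2.70, 0.0872, 2.345 and 0 FPKM in Dek_fl, so it stood high in Dek_cKO replicate 1 only.

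The genes whose deposited profile was most like that of Dek were ranked by the root mean square difference of log2(FPKM + 1) over the 7 libraries, each gene centred on its own mean. The nearest were Rerg, Rad51b, Timm22, Vegfb and Klhl15, at 0.508 to 0.555 on the log2 scale. Rad51b, a recombination factor, was listed at 0, 0 and 0 FPKM in Dek_cKO and at 5.21, 11.9, 15.0 and 0 FPKM in Dek_fl. Timm22, a subunit of a mitochondrial inner membrane translocase, was at 11.04, 6.98 and 14.9 FPKM in Dek_cKO and at 50.9, 56.2, 64.7 and 29.2 FPKM in Dek_fl. Rerg was at 1.29, 0.874 and 1.28 FPKM in Dek_cKO and at 5.87, 8.93, 15.8 and 3.21 FPKM in Dek_fl. Of the other 9 genes, Set was the nearest to Dek, at 1.22, and held place 410 in this order, and Hmgn3 was the farthest, at 2.12. The profile of Dek used here includes the doubtful value of Dek_cKO replicate 3.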

How the data were processed

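The RNA of sorted mouse HSCs was sequenced in 3 Dek_cKO and 4 Dek_fl libraries, and a single table of 33298 genes was used. It holds FPKM values that the authors computed and deposited, in a column for each library. The tools listed in the submitters' processing notes are Bowtie (0.12.9), Cufflinks (2.1.1) and HTSeq, with the mm10 build. Which tool did which step, and the annotation release, is not stated there. Groups and replicate numbers come from the sample titles. The 10 genes and the other lists were chosen with earlier results of these data known.

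A gene was tested if 3 or more libraries had 1 FPKM or more. Testing used limma (3.58.1, R 4.3.3) with log2(FPKM + 1) as input, a mean-variance trend and robust moderation. Its standard errors and intervals can thus be wider or narrower than a gene's own spread would give. Adjustment was over every tested gene. Differences are Dek_cKO minus Dek_fl on that scale, so changes of weakly expressed genes come out smaller than they are. Exact permutation tests used mean log2(FPKM + 1), and mean FPKM for Dek. Named genes were the 10 members, the 5 officially named genes nearest to Dek, and the 2 of smallest p in each other list.

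Reads were recovered as FPKM times transcript length (GENCODE M21) times the library total. Among 7003 genes that reached 30 reads in 5 libraries or more, 92.9% were whole in all 7 libraries at an annotated length. Poisson intervals cover counting error only. The fits were tested on simulated data. Alternatives were a pseudocount of 0.1, other filters, median-of-ratios and TPM scaling, plain limma moderation, leaving out each library, a replicate block, voom on recovered reads, and values of 5 decimals multiplied by 10. Promoter windows come from RefSeq on GRCm38.p6 and gene positions from GENCODE M21 on GRCm38, the assembly that mm10 denotes. Exact tests ran in Python 3.11.15 with scipy 1.17.1, and plots were drawn with matplotlib 3.10.9.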

Additional observations from a re-analysis of the deposited data

Results flagged for a closer look

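In Dek_fl replicate 4, 4 of the 10 genes lay farther from the other Dek_fl libraries than Dixon's 95% critical value for 4 samples allows, on the log2(FPKM + 1) scale. The gap to the nearest library divided by the whole range was 0.916 for Hmgn1, 0.850 for Hmgb3, 0.846 for Hmgn3 and 0.845 for Hmgn2. All 4 were low in that library. Chance gives such a value in about 1 of 20 groups, and 10 groups were examined, which share the same libraries and are not independent.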

How the results depend on the processing

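No gene was called at an adjusted p of 0.05 by limma, with all libraries or under any of the 17 alternatives, while the number at an unadjusted p under 0.05 was 404 with all libraries, 546 by voom, and 251 to 552 when a library was left out (251 without Dek_cKO replicate 2). Log2 fold changes of Dek, Set, Hmga1, Hmga2, Hmgb1 and Hmgn3 kept their sign under the alternatives run. That of Hmga1 (-1.97) was -2.91 to -0.37 when a library was left out. That of Hmgn1 (-0.025) was 0.030 with a pseudocount of 0.1, 0.061 after TPM rescaling and -1.41 to 0.52 when a library was left out. Hmgn2 (0.29) was -0.016 by voom and -0.33 to 0.56 when a library was left out, Hmgb3 (0.50) was -0.15 to 0.79, and Hmgb2 (0.069) was -0.073 to 0.21. With the replicate block Hmgb3 was -0.15, Hmgn2 -0.33 and Hmgn1 -1.41, the same as without Dek_fl replicate 4, whose number no Dek_cKO library shares. The numbers are not known to pair the libraries. Deviations from group means correlated across genes at -0.030, -0.073 and 0.045 for same-numbered libraries and at -0.083 to 0.072 for the others. These values cannot settle pairing, since the Dek_fl mean includes replicate 4, which stood apart. The difference of Dek (-80.7 FPKM, exact permutation p = 0.0571) was -102.4 to -63.4 FPKM when a library was left out, with p of 0.10 to 0.133. Relative to the other 9 genes, Dek differed by -2.80, by -2.10 against their median, by -1.72 with the doubtful value multiplied by 10, by -1.79 with that value and without Dek_fl replicate 4, a combination chosen after seeing the data, and by -2.92 to -2.64 when a library was left out. Counting error is large for the values of 44 reads or fewer: Hmgn1, Hmgn3 and Hmga2 in Dek_fl replicate 4 and Hmga1 in Dek_cKO replicate 2. Both libraries were among the smallest, with totals of 4521306 and 4422645 reads. Dek_fl replicate 1 had 4209152 reads, and the remaining libraries had 5950832 to 26951515.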
